A study of Saccharomyces cerevisiae with 8 samples.

Results

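Nucleosome calls were examined over 36 genes of pheromone signalling and mating, out of 6002 nuclear protein-coding genes of Saccharomyces cerevisiae, in cells labelled as synchronised in G1. The genes were taken from a fixed list of names, and all 36 were found in the annotation, on 14 chromosomes. For each gene, the calls from 800 bp upstream of the coding sequence to its end were used. The assay was MNase-seq, in which micrococcal nuclease digests linker DNA and the fragments that nucleosomes protect are sequenced. There were 8 libraries, 4 from untreated cells and 4 from cells given 1,10-phenanthroline, which chelates metals and is used in yeast to block transcription, at 100 µg/ml for 30 min at 30 °C. Every library came from the MATa line PPY1 grown in YPD, with his3Δ0, leu2Δ0, met15Δ0, ura3Δ0 and bar1::leu2 in the genotype. Each of 4 strains gave 1 library per treatment and was labelled as carrying an inserted 81 bp sequence in a pair of genes, CKB2 and DGK1 in strain 1, PPT1 and SLM3 in strain 2, TRP4 and PAN5 in strain 3, and UBX5 and BSP1 in strain 4. None of the 36 genes carried an insert by these labels. The sources used here do not give the method of synchronisation, nor whether the cells had met pheromone.

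A yeast cell of mating type a secretes a-factor and senses alpha-factor, the pheromone of the opposite type, through a receptor that releases the beta and gamma subunits of a G protein. These recruit a kinase cascade on a scaffold protein, and the last kinases activate the transcription factor Ste12, which switches on genes for arrest in G1, adhesion, cell fusion and nuclear fusion. Bar1, the secreted protease missing by the genotype, degrades alpha-factor. In most active yeast genes a nucleosome-depleted region lies before the transcription start, flanked by the -1 nucleosome upstream and the +1 nucleosome downstream.

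The 8 libraries held 72650 to 75086 calls. Each call has a centre (the dyad) and a score from 0 to 1, the mean of a width score and a height score, so that a high score marks a tall peak with little scatter of the fragments. The calls carry no read depth, and each library had about 10 M read pairs by the labels. URA3 and MET17 (the gene labelled met15) held 0 calls in all libraries, HIS3 held 2 to 3, LEU2 8 to 11 and BAR1 11 to 13. A step in coordinates of 78.5 to 83.0 bp was found at the insertion sites in 16 of 64 pairs of library and site, and 0 of the 16 were in a strain labelled for that site. The steps were subtracted where they were measured. Libraries are therefore named by strain label only. STE4, STE5, STE12 and MFA1 lie beyond such a site. The labels do not say whether the 2 libraries of a strain came from separate cultures, so p-values cover the spread from strain to strain, which may be partly technical. A score averages over all cells, so a small change in every cell and a larger one in some of them cannot be told apart.

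In untreated cells most of the pheromone response genes had low nucleosome scores over their coding sequences. The gene-body score, the mean score of the calls in a coding sequence with at least 3 calls in every library, could be measured for 31 of the 36 genes. MFA1, MFA2, STE18, AGA2 and PRM3 had too few calls, and the shortest of the 36 coding sequences spanned 111 bp. The median gene-body score of the 31 genes was 0.607, against 0.688 over all 5094 genes measured. In the libraries of strain labels 1 to 4 the median of the 31 was 0.602, 0.606, 0.617 and 0.603, and that of all genes 0.690, 0.677, 0.688 and 0.693. Of the 31 genes, 23 lay below the median of all genes and 17 below the first quartile of 0.608. A single gene, STE50, which codes for an adaptor of the kinase Ste11, lay above the third quartile of 0.776, at 0.872 ± 0.00592 (SD, n = 4). The roles differed, as the 7 genes of the MAP kinase cascade had a median of 0.696 and the 2 nuclear fusion genes measured 0.682. Low scores were not particular to this list. Of 49 related genes of the pathway outside it, 35 lay below the median of all genes, with a median of 0.625.

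The 6 lowest gene-body scores in untreated cells were those of STE4, STE6, STE2, STE5, FAR1 and SST2. STE4, the G protein beta subunit, had a gene-body score of 0.490 ± 0.0151 (SD, n = 4), the a-factor exporter STE6 0.496 ± 0.00583 and the alpha-factor receptor STE2 0.506 ± 0.0209. The scaffold STE5 had 0.530 ± 0.0150, FAR1, which binds and inhibits the G1 cyclin kinase, 0.534 ± 0.0181, and SST2, which speeds GTP hydrolysis by the alpha subunit, 0.535 ± 0.0140. The means of STE4, STE6 and STE2 differed by less than 1 SD of STE2. STE4 had 7.94% of its untreated calls in the authors' class W (well positioned), STE2 11.9% and STE5 17.9%, against 86.96% for STE50 and 82.7% for the kinase STE11. Over all 36 windows 44.1% to 49.1% of calls in an untreated library were of class W, against 53.0% to 56.8% of all calls. The 36 genes had a median coding length of 1440 bp against 1200 bp for all genes, and the part of length in their scores was not tested.

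**Figure D1:**
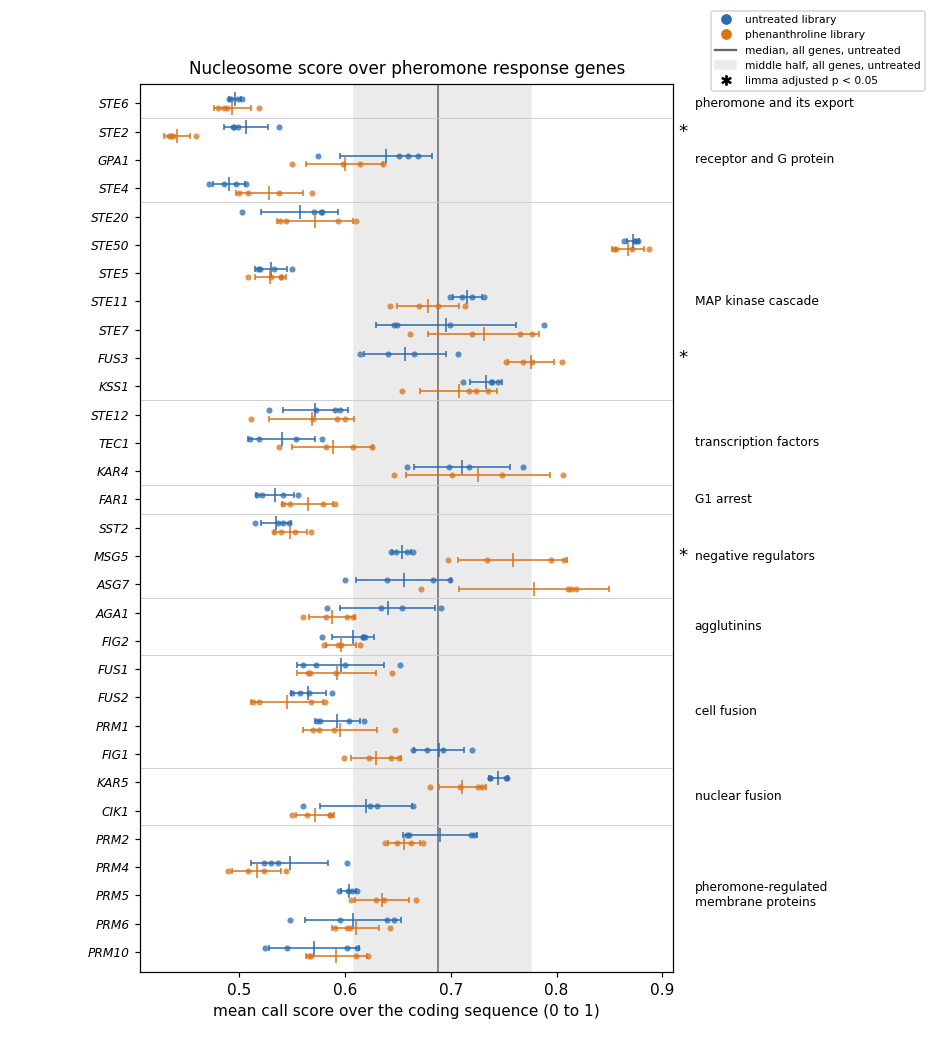
Gene-body score (x axis, mean call score from 0 to 1) of the 31 measured pheromone response genes, grouped by role. Points are libraries, bars the mean ± SD of 4 libraries, and the grey band spans the quartiles of all genes in untreated cells (0.608 to 0.776). In untreated cells 17 genes lie left of the band, and asterisks mark STE2, FUS3 and MSG5, the 3 genes that changed under phenanthroline.

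The +1 nucleosome of most of these genes lay far upstream of the start of the coding sequence. The +1 and -1 nucleosomes were taken as the most widely separated neighbours, with the +1 dyad required to lie between -150 and 200 bp of the coding start. In untreated cells the median +1 dyad of the 36 genes was at -64 bp, against -5.5 bp over 5576 genes. The medians of the 36 in the untreated libraries were -67.5, -64, -64 and -66.5 bp, and those of all genes -6, -7, -3 and -6 bp. Of the 36 genes, 22 lay upstream of the first quartile of all genes, -45.75 bp, and 5 downstream of the third quartile, 18.5 bp. The 4 cell fusion genes had a median of -95.1 bp and the 3 agglutinin genes -94 bp. The 7 genes of the MAP kinase cascade did not share this, with a median of -1 bp. For 49 related genes of the pathway outside the list the median was -16.5 bp. The genes KAR5 (nuclear membrane fusion) at 177 ± 6.93 bp, STE4 at 160 ± 3.04 bp and CIK1, a partner of the kinesin Kar3, at 109.5 ± 2.08 bp (SD, n = 4) stood at the other end. In untreated cells the widest stretch free of calls from -800 to 200 bp was centred at a median of -496.25 bp at STE4 and -410.25 bp at CIK1. The pairs chosen at STE4 and CIK1 may therefore not flank the depleted region before the transcription start. SST2 lay at or near the upstream bound of the search in 3 untreated libraries, so its pair may be set by that bound.

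**Figure D2:**
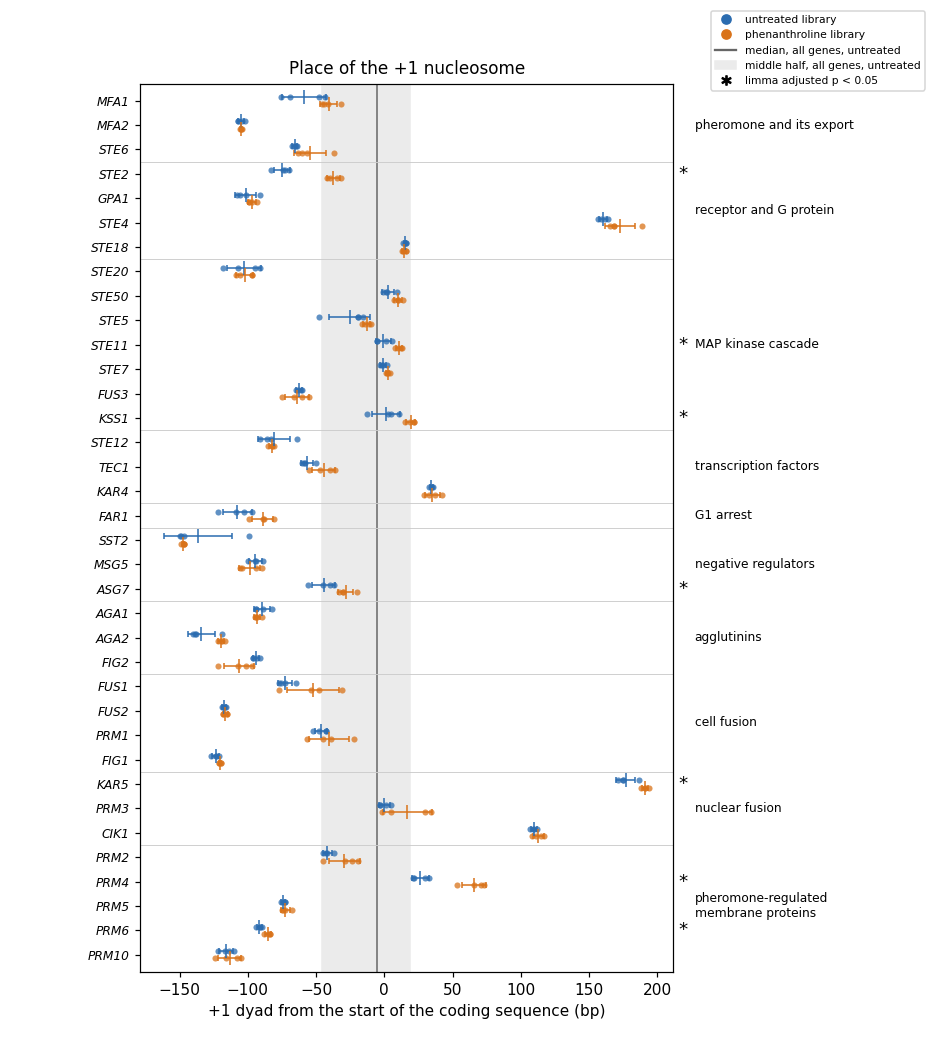
Place of the +1 dyad (x axis, bp from the start of the coding sequence, negative upstream) for the 36 genes, grouped by role. Points are libraries, bars the mean ± SD of 4 libraries, the line the median of all genes in untreated cells (-5.5 bp) and the band their quartiles. In untreated cells 22 genes lie left of the band. Asterisks mark the 7 genes whose +1 dyad moved downstream under phenanthroline.

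The scores upstream of the genes were also low, whereas the median width of the depleted region was close to that of all genes. The mean score over the 800 bp upstream had a median of 0.706 in the 36 genes and 0.790 over 5781 genes, and 26 of the 36 lay below the latter. In 31 of the 36 windows another gene reached into the 800 bp. The distance from the -1 to the +1 dyad had a median of 251.75 bp in 31 genes and 257.5 bp over 5263 genes. STE2, GPA1, STE5, FAR1 and PRM4 were not measured, since their -1 nucleosome was not called in every library. The distances ranged from 146 ± 17.2 bp at PRM10 to 457 ± 2.50 bp at PRM5 (SD, n = 4), both genes of pheromone-regulated membrane proteins. The kinase gene STE20, which acts just below the G protein, had 401 ± 12.9 bp. STE12, the factor that drives the response, had only 166 ± 9.74 bp, not far above the 147 bp that 92.1% of calls span. PRM10, with 157, 131, 165 and 132.5 bp in the untreated libraries, was below that span in some of them. Calls of that width would overlap there, so the pair at PRM10 may hold no depleted region.

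The widest stretch free of calls often lay farther upstream than the pair around the coding start. This measure, taken from -800 to 200 bp and added after seeing the data without a test, had a median of 124.75 bp in the 36 genes and 128 bp over 5835 genes. Its centre lay upstream of -150 bp in 31 of the 36 genes (86.1%) and in 64.5% of all genes, and its median place was -257 bp against -195 bp. At STE12 it spanned 184 to 190 bp in the untreated and 189 to 194 bp in the treated libraries, with its centre within 5.5 bp in all 8 libraries and at a median of -414 bp in untreated cells. At TEC1, whose product works with Ste12 in filamentous growth, the stretch had an untreated median of 285.5 bp at -481.5 bp. At PRM10 it spanned only 30 to 38 bp in the untreated and 28 to 36 bp in the treated libraries. The stretch kept its place within 50 bp in all 8 libraries at 18 of the 36 genes (50%), against 62.2% of all genes.

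Phenanthroline left the level of the gene-body scores of the group nearly where it was. The median difference, treated minus untreated, was -0.00265 over the 31 genes and -0.00597 over all genes, and 14 of the 31 were higher. In limma's test with Benjamini-Hochberg adjustment over all 5094 genes and a threshold of 0.05, 3 of the 31 changed (6.81% of all genes did). FUS3 and MSG5 rose and STE2 fell, where 3.16% of all genes rose and 3.65% fell. With the strain label as a block, 3 were called as well (7.81% of all genes), with ASG7 in place of STE2. Scores fell in the treated libraries as a whole, and after each library was centred on its median 534 of the 634 genes called were higher, against 161 of 347 without centring.

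In the other measures the shares of called genes were of the order seen over all genes. Upstream scores fell at 4 of the 36 genes and rose at 0, where 14.3% of all genes fell and 1.7% rose (16.0% called). At an unadjusted p under 0.05 in limma's test, 2 of the 36 had a higher upstream score and 1 had a +1 dyad farther upstream. Depleted regions widened at 5 of 31 genes and narrowed at 1, where 23.9% of all genes widened and 2.11% narrowed (26.0% called). The +1 dyad moved downstream at 7 of 36 genes and upstream at 0, where 17.8% of all genes moved downstream and 1.95% upstream (19.7% called). The counts for width and +1 dyad are near or below these shares. In the blocked fit the calls fell to 1 gene for the upstream score (10.4% of all genes), 1 for width (0.684%) and 2 for the +1 dyad (0.305%). The median +1 dyad of the 36 genes in the treated libraries was -56, -49.25, -38.5 and -47.5 bp, downstream of every untreated library, and the median of all genes moved from between -7 and -3 bp to between -2 and -1 bp. Gene by gene the shift was smaller, with a median difference of 6 bp in the 36 genes and 3.5 bp over all genes. The difference was positive at 80.6% of the 36 genes and at 77% of all genes.

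Called dyads inside the coding sequences lay closer together under phenanthroline. Spacing was taken per coding sequence, as the median of the distances of 100 to 300 bp from each dyad to the next, where at least 3 distances were left. This measure was added after seeing the data and was not tested. The median over 31 genes was 161, 159, 161.5 and 160 bp in the untreated libraries and 152, 152.75, 155 and 157 bp in the treated ones, with no overlap. For all genes it was 162 to 163.5 bp and 158.5 to 159.25 bp. Mean spacing was shorter at 27 of the 31 genes (87.1%) and at 79.5% of 4404 genes, with a median difference of -8.38 bp and -3.25 bp. The groups did not overlap, with shorter spacing, at 6 of the 31 genes (19.4%), against 11.5% of all genes. These were STE20, STE50, STE12, FIG2, PRM2 and PRM5. At FIG2, which codes for a cell wall adhesin, spacing was 152, 162, 151.5 and 162 bp untreated and 140, 134, 132 and 137.5 bp treated. Most calls span 147 bp, so dyads nearer than that belong to overlapping calls, as for the treated values at FIG2. At STE50 the treated spacing, 165 to 166.5 bp, was above that span. Class W held 44.1% to 49.1% of calls in the pheromone response windows in untreated libraries, and 40.6% to 43.95% in treated ones. Whether the shorter spacing came from overlapping calls or from nucleosomes lying closer was not tested.

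Among the genes of the pheromone and its export, the depleted region widened at MFA1, and the +1 nucleosome of MFA2 lost score in place. Both code for precursors of a-factor, and their coding sequences hold about 1 call each. At MFA1 the width was 279, 302.5, 288 and 310.5 bp untreated and 314, 313, 319 and 328 bp treated, so the groups did not overlap. It rose by 23.5 ± 7.07 bp (SE, limma adjusted p = 0.0444). The blocked fit did not call it (limma adjusted p = 0.0561), nor did any of the 4 fits that left out a strain label (limma adjusted p up to 0.153). The +1 dyad of MFA1 was at -76, -47.5, -69 and -43.5 bp untreated and at -46, -44, -41 and -32 bp treated, with overlap (limma adjusted p = 0.117). The +1 dyad of MFA2 was at -107, -107, -102 and -104 bp and at -105, -105, -106 and -104 bp, with a mean of -105 bp in both groups.

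The score of that +1 nucleosome of MFA2 was 0.806, 0.658, 0.622 and 0.649 untreated and 0.452, 0.424, 0.410 and 0.349 treated. All treated libraries lay below all untreated ones, and the difference was -0.275 ± 0.0430 (SE, limma adjusted p = 0.0100). The width at MFA2 was 320, 316, 327 and 318 bp untreated and 323, 329, 334 and 330 bp treated (limma adjusted p = 0.0838). The upstream scores of both genes overlapped between the groups, at 0.696, 0.654, 0.717 and 0.584 against 0.715, 0.715, 0.711 and 0.687 for MFA1, and 0.675, 0.545, 0.695 and 0.579 against 0.517, 0.566, 0.530 and 0.576 for MFA2. At STE6 the -1 nucleosome fell from a score of 0.491 ± 0.0424 to 0.373 ± 0.0329 (SD, n = 4, limma adjusted p = 0.0405, or 0.0558 with the block).

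The +1 nucleosome of the receptor gene STE2 lay farther downstream under phenanthroline. Its +1 dyad lay at -70, -83, -73 and -74 bp in the untreated libraries and at -35, -42, -32 and -40 bp in the treated ones. Every treated library was downstream of every untreated one, and the mean moved from -75 ± 5.60 to -37.25 ± 4.57 bp (SD, n = 4). The difference was 37.75 ± 3.32 bp (SE, limma adjusted p = 0.00289 over 5576 genes, 0.0115 with the block), and it was called in all 4 fits that left out a strain label. Among the 60135 nucleosomes of the genome, the same dyad was called (limma adjusted p = 0.00720) but lost the call with the block (0.0595) and without strain label 1 (0.0663) or 4 (0.0632). STE2 also had a lower gene-body score, 0.498, 0.494, 0.495 and 0.537 untreated and 0.435, 0.459, 0.437 and 0.433 treated. The groups did not overlap, and the score fell by 0.0650 ± 0.0169 (SE, limma adjusted p = 0.0466). That call was lost with the block (limma adjusted p = 0.0640), with centred scores (0.138) and without each strain label in turn (0.0540 to 0.226). With calls of score 0.4 or more only, the difference was -0.00742 (limma adjusted p = 0.813). In untreated cells STE2 stood at the 4.40th percentile of all genes, and in treated cells at the 0.177th. Its upstream score, 0.634, 0.697, 0.644 and 0.602 against 0.723, 0.768, 0.658 and 0.639, overlapped between the groups.

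The G protein subunit genes GPA1 (alpha), STE4 (beta) and STE18 (gamma) were called in none of the gene-level measures in which they were tested. Single nucleosomes did change. At GPA1 the nucleosome at -615 bp had a score of 0.760, 0.735, 0.740 and 0.641 untreated and 0.404, 0.538, 0.424 and 0.407 treated, with no overlap (limma adjusted p = 0.00712). A dyad at the far end of the GPA1 window, inside the neighbouring gene TIM10, moved from -806, -804, -809 and -807 bp to -793, -786, -784 and -789 bp, without overlap (18.5 ± 2.49 bp, SE, limma adjusted p = 0.0246, 0.107 with the block). At STE4 a nucleosome at 674 bp, inside the coding sequence, rose from 0.552 ± 0.0507 to 0.747 ± 0.0564 (SD, n = 4, limma adjusted p = 0.0184).

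In the kinase cascade, the strongest change was at FUS3, one of the pair of MAP kinases at its end. Its gene-body score was 0.614, 0.706, 0.641 and 0.665 untreated and 0.769, 0.805, 0.777 and 0.753 treated, so all treated libraries were higher. It rose by 0.119 ± 0.0221 (SE, limma adjusted p = 0.0171, 0.0199 with the block), from the 39.4th to the 78.9th percentile of all genes. The call was lost without strain label 1 (limma adjusted p = 0.125), 3 (0.0650) or 4 (0.0711), with a difference of 0.107 to 0.130 in the 4 fits.

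The rise at FUS3 lay in the second part of the coding sequence, while the +1 nucleosome fell. The nucleosome at 731 bp had a score of 0.590, 0.527, 0.540 and 0.594 untreated and 0.847, 0.850, 0.804 and 0.834 treated (difference 0.271 ± 0.0241, SE, limma adjusted p = 0.00195). The nucleosome at 573 bp had 0.408, 0.469, 0.564 and 0.519 untreated and 0.838, 0.810, 0.785 and 0.714 treated (0.297 ± 0.0401, SE, limma adjusted p = 0.00591). The one at 895 bp had 0.601, 0.711, 0.631 and 0.618 untreated and 0.890, 0.887, 0.852 and 0.853 treated (0.230 ± 0.0282, SE, limma adjusted p = 0.00438). The +1 nucleosome, at -63 bp, had a score of 0.791, 0.833, 0.741 and 0.758 untreated and 0.468, 0.538, 0.446 and 0.436 treated, and fell by 0.309 ± 0.0310 (SE, limma adjusted p = 0.00280). In none of these 4 nucleosomes did the groups overlap, and the block kept all 4 calls. The nucleosome at 895 bp was not called without strain label 1 (limma adjusted p = 0.0517). The +1 dyad of FUS3 stayed between -65 and -60 bp untreated and -75 and -55 bp treated (limma adjusted p = 0.764). Width, 283, 249, 274 and 255 bp against 238, 245, 261 and 254 bp, and upstream score, 0.712, 0.738, 0.653 and 0.717 against 0.742, 0.771, 0.701 and 0.565, overlapped.

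**Figure D3:**
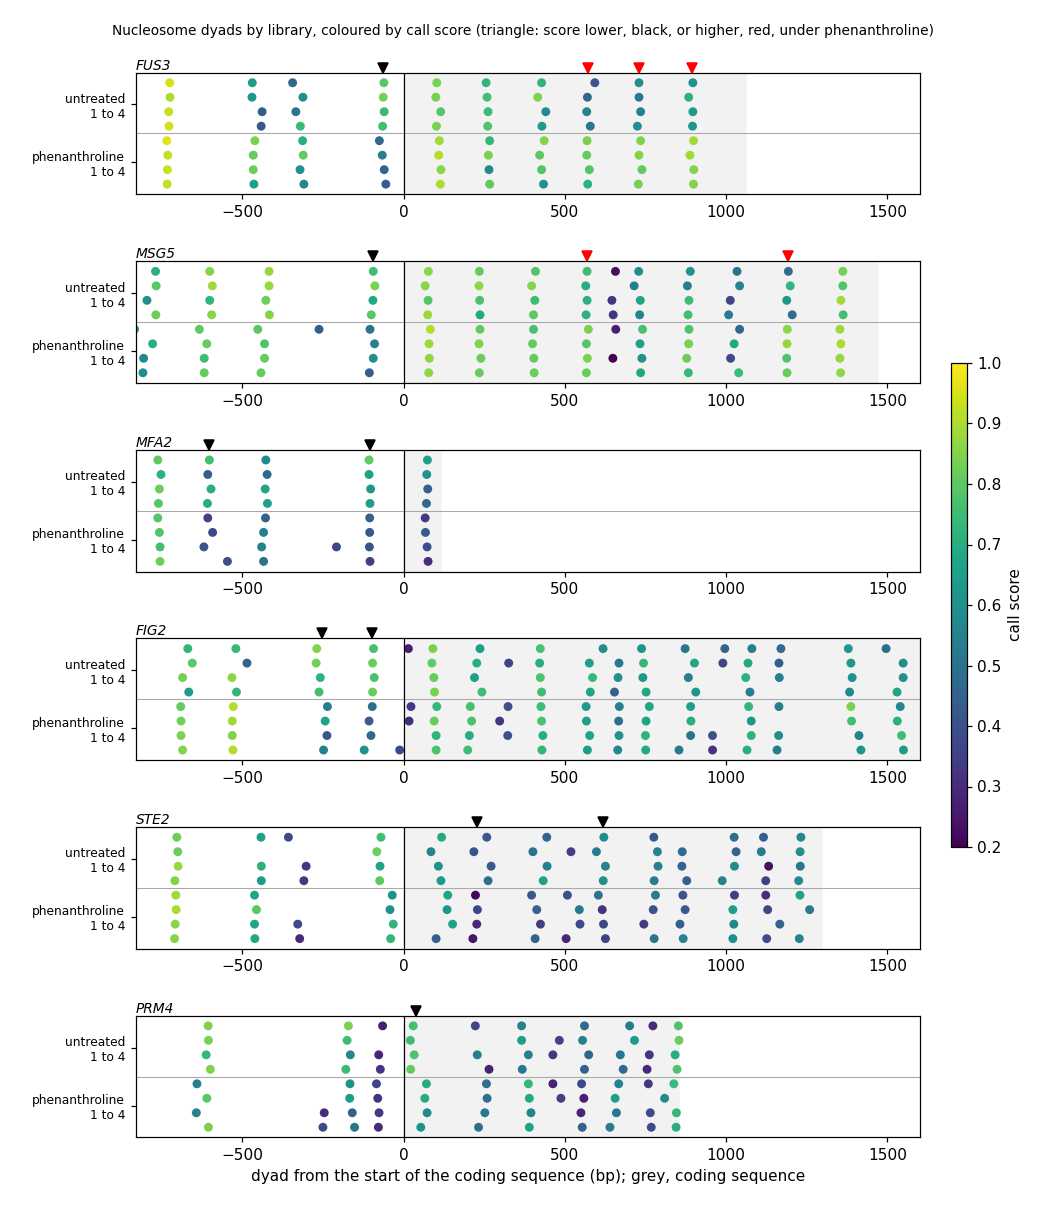
Dyads of 6 genes by library (x axis, bp from the start of the coding sequence; rows, untreated 1 to 4 above the line and phenanthroline 1 to 4 below it), coloured by call score from 0.2 to 1. Grey marks the coding sequence, which runs past the plot for FIG2, and triangles mark nucleosomes whose score fell (black) or rose (red) in the fit without the block. At FUS3 the 3 nucleosomes at 573, 731 and 895 bp rise while the one at -63 bp falls, and at STE2 and PRM4 the +1 dyad lies farther downstream in the treated rows.

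At KSS1, the other MAP kinase, the +1 dyad moved downstream and the depleted region widened. The dyad was at 3, -13, 11 and 5 bp untreated and at 15, 22, 19 and 22 bp treated, without overlap (18 ± 4.85 bp, SE, limma adjusted p = 0.0401, 0.0780 with the block). The width was 195, 182, 200 and 196 bp untreated and 208, 216, 210 and 216 bp treated (19.25 ± 4.22 bp, SE, limma adjusted p = 0.0224, 0.0627 with the block). The gene-body score of KSS1 did not pass the threshold (-0.0258 ± 0.0206, SE, limma adjusted p = 0.467). Both calls at KSS1 were lost without strain label 1, 2 or 4, with limma adjusted p up to 0.159 for the dyad and 0.116 for the width.

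STE11, the first kinase of the cascade proper, and STE7, the kinase between it and Fus3, lost score upstream. The upstream score of STE11 was 0.878, 0.842, 0.891 and 0.876 untreated and 0.825, 0.801, 0.799 and 0.785 treated. It fell by 0.0693 ± 0.0174 (SE, limma adjusted p = 0.0317, 0.0709 with the block), without overlap. That of STE7 was 0.929, 0.822, 0.838 and 0.875 untreated and 0.701, 0.738, 0.736 and 0.830 treated, with overlap at strain label 4, and fell by 0.115 ± 0.0330 (SE, limma adjusted p = 0.0475, 0.0731 with the block). With centred scores neither was called (limma adjusted p = 0.136 and 0.115). The STE11 call was lost without strain label 1, 3 or 4 (limma adjusted p up to 0.154) and the STE7 call without any 1 label (up to 0.230). A single nucleosome at each gene fell steeply. At -554 bp from STE11 the score was 0.871, 0.870, 0.850 and 0.862 untreated and 0.707, 0.641, 0.596 and 0.655 treated (-0.214 ± 0.0261, SE, limma adjusted p = 0.00434). At -478 bp from STE7 it fell from 0.882 ± 0.0466 to 0.626 ± 0.0667 (SD, n = 4, limma adjusted p = 0.00852). Within 400 bp of STE11, which leaves out that nucleosome, the upstream score differed by 0.00984 (limma adjusted p = 0.821).

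The +1 dyad of STE11 moved from -5, -5, 6 and 1 bp to 12, 8, 10 and 13 bp (11.5 ± 2.70 bp, SE, limma adjusted p = 0.0294, 0.0617 with the block), a call lost without strain label 1, 2 or 4 (up to 0.165). The kinase gene STE20 was called in no gene-level measure, yet 3 of its nucleosomes rose, and 2 of them did with the block. The one at 1666 bp had a score of 0.554, 0.437, 0.558 and 0.469 untreated and 0.759, 0.738, 0.748 and 0.783 treated (0.252 ± 0.0320, SE, limma adjusted p = 0.00488). Another nucleosome of STE20 moved upstream, with dyads at 1060, 1060, 1057 and 1064 bp untreated and at 1031, 1023, 1037 and 1021 bp treated (limma adjusted p = 0.0174, 0.104 with the block). In the scaffold gene STE5 a dyad moved from 1617, 1614, 1607 and 1610 bp to 1559.5, 1552, 1586.5 and 1578.5 bp (limma adjusted p = 0.0494, 0.128 with the block). The adaptor gene STE50 passed no gene-level test. Its 2 nucleosomes with higher scores, at -554 and -387 bp, lay inside the neighbouring gene MXR2 (limma adjusted p = 0.0479 and 0.0269), and neither was called with the block (0.0977 and 0.0675).

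The transcription factor genes STE12, TEC1 and KAR4 were called in no gene-level measure. The gene-body score of STE12 was 0.596, 0.591, 0.528 and 0.572 untreated and 0.592, 0.600, 0.511 and 0.570 treated (-0.00342 ± 0.0237, SE, limma adjusted p = 0.941). Its upstream score, 0.775, 0.698, 0.708 and 0.776 against 0.803, 0.769, 0.860 and 0.863, was called only with centred scores (limma adjusted p = 0.0797, 0.0475 centred). Width, 159, 164, 180 and 160 bp against 158, 164, 161 and 159 bp (limma adjusted p = 0.417), and +1 dyad, -91, -83, -64 and -86 bp against -85, -82, -81 and -82 bp (limma adjusted p = 0.850), overlapped. Inside STE12 the changes went both ways. The nucleosome at 587 bp had 0.716, 0.729, 0.724 and 0.739 untreated and 0.571, 0.591, 0.540 and 0.592 treated, and fell by 0.154 ± 0.0204 (SE, limma adjusted p = 0.00565; 0.0579 without strain label 1). The one at 417 bp also fell (-0.264, limma adjusted p = 0.0225) and the one at 1262 bp rose (0.121, limma adjusted p = 0.0249, 0.0619 with the block). In TEC1 3 nucleosomes rose, at 768, 980 and 1234 bp, and with the block only the last of them was called (limma adjusted p = 0.0524, 0.0992 and 0.0469). In KAR4, a factor for nuclear fusion genes, the nucleosome at 982 bp fell from 0.740 ± 0.0458 to 0.564 ± 0.0744 (SD, n = 4, limma adjusted p = 0.0363).

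FAR1 was called in no gene-level measure. Its gene-body score was 0.516, 0.541, 0.556 and 0.522 untreated and 0.547, 0.591, 0.541 and 0.579 treated (0.0310 ± 0.0183, SE, limma adjusted p = 0.321). The +1 dyad of FAR1 lay at -122, -97, -103 and -109 bp untreated and at -81, -89, -88 and -99 bp treated (18.5 ± 5.83 bp, SE, limma adjusted p = 0.0589, 0.0482 when calls were assigned within 30 bp), and the groups overlapped. Its upstream scores, 0.754, 0.618, 0.572 and 0.648 against 0.571, 0.633, 0.518 and 0.657, overlapped too.

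Among the negative regulators, MSG5 and ASG7 changed and SST2 did not pass any gene-level test. Msg5 is a phosphatase of Fus3. Its gene-body score was 0.643, 0.658, 0.664 and 0.648 untreated and 0.734, 0.807, 0.697 and 0.795 treated, all treated libraries being higher. It rose by 0.105 ± 0.0244 (SE, limma adjusted p = 0.0323, 0.0399 with the block), a call lost without strain label 1 (limma adjusted p = 0.151), 2 (0.0779) or 4 (0.157). Nucleosomes at 568 and 1192 bp of MSG5 rose by 0.106 and 0.249 (limma adjusted p = 0.0287 and 0.0313, and 0.0516 with the block for the first). As at FUS3, the +1 nucleosome fell, from 0.766 ± 0.0696 to 0.521 ± 0.0675 (SD, n = 4, limma adjusted p = 0.0163). The depleted region of MSG5 was 323, 328, 332 and 316 bp untreated and 348, 341, 337 and 336 bp treated, without overlap (15.75 ± 4.20 bp, SE, limma adjusted p = 0.0340, 0.0661 with the block, up to 0.168 without strain label 1, 2 or 4).

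Asg7, which acts on the beta subunit after mating, is coded by an a-specific gene. Its depleted region was 228, 224, 236 and 213 bp untreated and 241, 246, 254 and 244 bp treated (21 ± 5.12 bp, SE, limma adjusted p = 0.0275, 0.0523 with the block). Its +1 dyad moved from -40, -45, -37 and -56 bp to -33, -30, -20 and -30 bp (16.25 ± 4.56 bp, SE, limma adjusted p = 0.0446, 0.0599 with the block). In both the groups did not overlap, and both calls were lost without strain label 1, 2 or 4 (limma adjusted p up to 0.123 and 0.145). The gene-body score of ASG7 differed by 0.124 ± 0.0346 (SE, limma adjusted p = 0.0575, 0.0235 with the block).

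The gene-body score of SST2 was 0.515, 0.547, 0.536 and 0.541 untreated and 0.533, 0.568, 0.552 and 0.539 treated (limma adjusted p = 0.655). Its +1 dyad, at -147, -99, -150 and -149 bp untreated and -147, -149, -147 and -147 bp treated, differed in the untreated library of strain label 2 only (limma adjusted p = 0.467). The width of SST2 followed it, with 265, 311, 262 and 264 bp against 268, 263, 262 and 266 bp, and the upstream scores, 0.696, 0.650, 0.693 and 0.788 against 0.689, 0.745, 0.793 and 0.791, overlapped. Inside SST2 nucleosomes at 650 and 933 bp rose by 0.180 and 0.170 (limma adjusted p = 0.0187 and 0.0435).

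Among the agglutinin genes, the distance from the -1 to the +1 dyad rose at AGA2 and fell at FIG2. Aga2 is the adhesive subunit of a-agglutinin. Its gene had a width of 278, 274, 315 and 278 bp untreated and 318, 339, 335 and 328 bp treated (43.75 ± 9.46 bp, SE, limma adjusted p = 0.0217, 0.0523 with the block, up to 0.120 without strain label 1, 2 or 4). The groups did not overlap, but the untreated library of strain label 3 lay within 3 bp of the lowest treated one. At FIG2 the width was 176, 175, 167 and 166 bp untreated and 139, 136, 136.5 and 126 bp treated. It fell by 36.6 ± 3.80 bp (SE, limma adjusted p = 0.00535, 0.0274 with the block, 0.0533 without strain label 1), to less than the width of most calls. With calls of score 0.4 or more only, the width at FIG2 was 20.5 bp higher in treated cells (limma adjusted p = 0.0273). The widest stretch free of calls at FIG2, which was not tested, did not narrow. It spanned 104, 37, 127 and 45 bp untreated and 145, 141, 120 and 134 bp treated, with overlap. Its centre lay at -394.5, -4, -395 and 0 bp untreated and between -397.5 and -382 bp treated.

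Both nucleosomes of that -1 and +1 pair at FIG2 lost score. The +1 nucleosome had 0.766, 0.819, 0.769 and 0.814 untreated and 0.493, 0.433, 0.468 and 0.596 treated (-0.295 ± 0.0361, SE, limma adjusted p = 0.00438), and the -1 nucleosome fell from 0.788 ± 0.0611 to 0.540 ± 0.101 (SD, n = 4, limma adjusted p = 0.0272). The groups did not overlap in either. The -1 dyad of FIG2 moved from -269, -271, -258 and -262 bp to -236, -243, -237.5 and -248 bp (23.9 ± 3.94 bp, SE, limma adjusted p = 0.0428, 0.114 with the block). AGA1, which anchors Aga2 in the cell wall, was called in no gene-level measure, and its -1 nucleosome fell from 0.674 ± 0.0608 to 0.518 ± 0.0492 (SD, n = 4, limma adjusted p = 0.0393, 0.0734 with the block). FIG2 and AGA1 code for proteins with repeats, and the sources used here do not say how reads from repeats were placed.

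The cell fusion genes FUS1, FUS2, PRM1 and FIG1 passed no gene-level test, although the upstream score of FUS1 did in a narrower window. FUS1, a common reporter of the response, had a gene-body score of 0.560, 0.572, 0.652 and 0.599 untreated and 0.567, 0.644, 0.565 and 0.591 treated (-0.00391 ± 0.0252, SE, limma adjusted p = 0.938). Its width was 244, 250, 268 and 245 bp untreated and 255.5, 284.5, 332 and 257 bp treated (limma adjusted p = 0.185). Its +1 dyad was at -77, -65, -76 and -73 bp untreated and at -77, -53.5, -31 and -48 bp treated (limma adjusted p = 0.127). In both, the treated libraries scattered more, with a treated SD of 35.7 bp against 11.1 bp for the width, and the groups overlapped. The upstream scores of FUS1, 0.671, 0.757, 0.776 and 0.667 against 0.690, 0.709, 0.656 and 0.711, overlapped (-0.0265, limma adjusted p = 0.565). Within 400 bp upstream the score of FUS1 fell, by 0.181 (limma adjusted p = 0.00136), and with calls of score 0.4 or more only it fell by 0.0845 (limma adjusted p = 0.0116). Its -1 nucleosome fell from 0.721 ± 0.0730 to 0.491 ± 0.0653 (SD, n = 4, limma adjusted p = 0.0209). In FUS2 the nucleosomes at -751 and 1696 bp fell (limma adjusted p = 0.0319 and 0.0467, or 0.0610 and 0.0791 with the block), the first inside the neighbouring gene PEP5. FIG1, needed for calcium uptake in mating, had a gene-body score lower by 0.0595 ± 0.0191 in treated cells (SE, limma adjusted p = 0.0832), without overlap.

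Of the nuclear fusion genes KAR5, PRM3 and CIK1, the +1 dyad of KAR5 moved downstream. It lay at 175, 175, 187 and 171 bp untreated and at 188, 191, 191 and 194 bp treated (14 ± 3.38 bp, SE, limma adjusted p = 0.0310, 0.0671 with the block, up to 0.153 without strain label 1, 2 or 4). The highest untreated and the lowest treated library were 1 bp apart. The search ended at 200 bp, so the pair at KAR5 may be set by that bound. Its widest stretch free of calls was centred at 55 to 68.5 bp in the 8 libraries, inside the coding sequence. In CIK1 the nucleosomes at 769 and 1615 bp fell (-0.163 and -0.256, limma adjusted p = 0.0118 and 0.00811) and the one at 1183 bp rose (0.216, limma adjusted p = 0.0432). PRM3, which codes for a nuclear envelope protein, had no nucleosome with a called change.

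Among the pheromone-regulated membrane proteins, PRM4 had a shift of its +1 dyad close in size to that of STE2. The dyad lay at 30, 21, 33 and 22 bp untreated and at 71, 66, 73 and 53.5 bp treated. All treated libraries were downstream of all untreated ones, by 39.4 ± 4.77 bp in the mean (SE, limma adjusted p = 0.00772, 0.0230 with the block, 0.0793 without strain label 1). The score of that nucleosome fell from 0.774 ± 0.0274 to 0.642 ± 0.0590 (SD, n = 4, limma adjusted p = 0.0424, 0.0866 with the block). The upstream score of PRM4 was called only with the block (-0.143 ± 0.0475, SE, limma adjusted p = 0.0732, 0.0219 with the block). STE2 and PRM4 were the only genes of the 36 whose +1 shift was called with the strain label as a block over all genes. With calls assigned within 30 bp, 31 of the 36 genes were tested. STE2 kept its call there (limma adjusted p = 0.00162), while PRM4 had no value in that setting. Tested among the nucleosomes of the genome, the PRM4 dyad was called (limma adjusted p = 0.0205) and lost the call with the block (0.0609) and without strain label 1 (0.142) or 2 (0.0576).

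PRM2 and PRM5 had lower upstream scores. Those of PRM2 were 0.886, 0.868, 0.814 and 0.866 untreated and 0.730, 0.814, 0.763 and 0.750 treated (-0.0942 ± 0.0238, SE, limma adjusted p = 0.0328, 0.0611 with the block, up to 0.186 without strain label 1 or 4). The highest treated library overlapped the lowest untreated one. Those of PRM5 were 0.822, 0.719, 0.83 and 0.799 untreated and 0.706, 0.700, 0.682 and 0.697 treated (-0.0962 ± 0.0252, SE, limma adjusted p = 0.0365, 0.0644 with the block, up to 0.166 without strain label 1, 3 or 4), and did not overlap. With calls of score 0.4 or more only, the upstream score of PRM5 was higher by 0.0369 in treated cells (limma adjusted p = 0.341). With centred scores neither gene was called (limma adjusted p = 0.120 and 0.101). In PRM5 a dyad moved downstream, from 703, 705, 696 and 703 bp to 735, 730, 730 and 731.5 bp (limma adjusted p = 0.00494, 0.0664 with the block), and in PRM2 one moved from 463, 450, 462 and 457 bp to 488, 481, 483 and 476 bp (limma adjusted p = 0.0388, 0.0920 with the block). At PRM6 the +1 dyad moved by 6.25 ± 1.45 bp (SE, limma adjusted p = 0.0283, 0.0678 with the block), from -91, -90, -91 and -94 bp to -88, -84, -84 and -85 bp, a call lost without any 1 strain label (up to 0.139). PRM10 had no called change in any measure.

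The score changes were also counted over single nucleosomes. The 36 windows held 566 consensus nucleosomes, of which 444 were called in every library and could be tested. Scores changed at 51 of them, 23 higher and 28 lower. Over 60135 nucleosomes of the genome 8.38% changed, 2.87% higher and 5.51% lower, and over those in the windows of all genes 7.79% changed. In the upstream windows 2 of 125 rose and 13 fell, against 1.58% and 8.16% in all genes (9.75% called). In the coding sequences 21 of 319 rose (6.58%) and 15 fell (4.70%), or 11.3% together, against 3.41%, 3.49% and 6.9% in all genes. With centred scores 31 of the 319 rose and 6 fell. Centring also moved the calls over the genome, where 2865 of 5045 were higher, against 1726 of 5039 without it. The centred share in the coding sequences of all genes is not given here. With the block 37 nucleosomes of the 444 were called (6.49% of the genome), since 18 of the 51 calls were lost and 4 others were gained. FUS3, STE20 and TEC1 had 3 rises each within the coding sequence, and STE2, STE6, STE12, CIK1 and PRM2 had 2 falls each there. The block left 1 of those rises at TEC1 and 2 at STE20, and 1 of those falls at STE2 and at STE6.

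**Figure D4:**
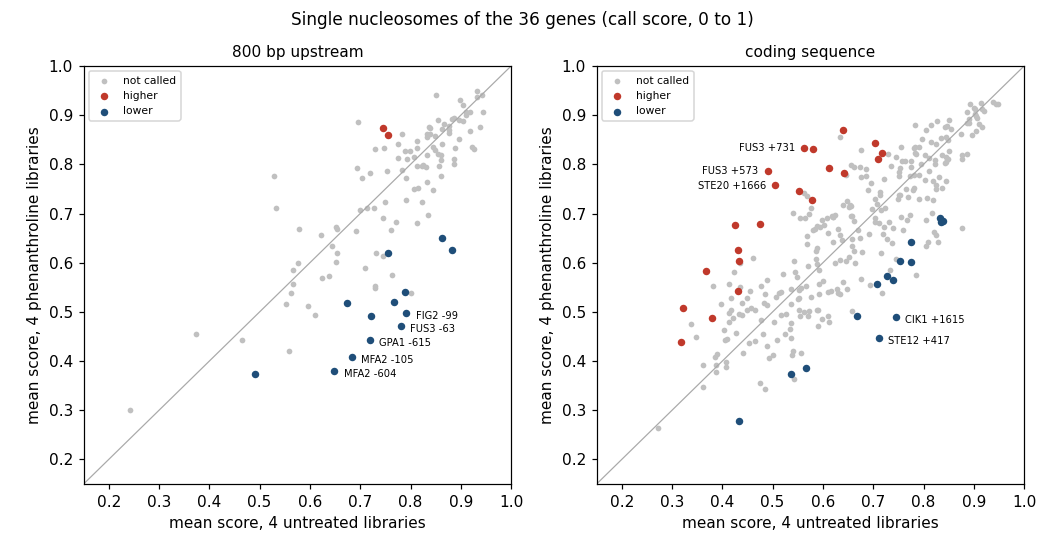
Mean score of each tested nucleosome in the 4 untreated (x axis) and the 4 treated libraries (y axis), 125 in the upstream windows (left) and 319 in the coding sequences (right). Red and blue mark nucleosomes whose score rose or fell, and the line marks equal scores; the largest called changes are labelled by gene and bp from the coding start. Upstream 2 rose and 13 fell, and in the coding sequences 21 rose and 15 fell.

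The called score changes of the nucleosomes flanking the depleted region were falls, as most were over all genes. The score of the +1 nucleosome fell at 5 of the 36 genes, FUS3, FIG2, MFA2, MSG5 and PRM4, and rose at 0, where 7.37% of all genes fell and 0.628% rose. That of the -1 nucleosome fell at 4 of 31 genes, FUS1, FIG2, STE6 and AGA1, and rose at 0, where 12.3% fell and 0.628% rose. The count for the -1 nucleosome is near that share. At an unadjusted p under 0.05 in limma's test, 1 gene had a higher +1 score and 1 a higher -1 score. The dyad moved at 8 of the 444 nucleosomes, 6 downstream and 2 upstream (1.27% of the genome). With the strain label as a block, limma called 0 dyads in the windows and 0 in the genome, while 100 in the windows and 13460 in the genome had an unadjusted p under 0.05. No nucleosome of the 36 windows was present in the 4 libraries of a treatment while missing from the other 4.

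Of 50 related genes of the pathway outside the 36, in 5 lists from a-factor processing to alpha-cell genes, 49 had a gene-body score, and 2 changed (6.81% of all genes did). CDC42, the GTPase of polarity, rose from 0.560 ± 0.0409 to 0.673 ± 0.0171 (SD, n = 4, limma adjusted p = 0.0185, 0.0311 with the block). PRM9, a further pheromone-regulated membrane protein with a close paralog, fell from 0.625 ± 0.0395 to 0.490 ± 0.0211 (limma adjusted p = 0.0121, 0.0273 with the block). BUD6, a polarity gene, was called only with the block (limma adjusted p = 0.111, 0.0322 with the block). Upstream scores fell at 4 of 50 genes (STE14, KAR1, PRM8 and STE3), and 0 rose (1 did at an unadjusted p under 0.05 in limma's test), where 16.0% of all genes were called. Of the 4, only PRM8 was called with the block (limma adjusted p = 0.0428), and STE14 (0.0715), KAR1 (0.0707) and STE3 (0.108) were not. Widths changed at 9 of 48 genes (26.0% of all genes), 7 wider and 2 narrower (BNI1 and KAR2), and +1 dyads at 12 of 49 (19.7% of all genes), 10 downstream and 2 upstream (CDC42 and BNI1). With the block, limma called 0 of these widths and 0 of these dyads, while at an unadjusted p under 0.05 there were 10 wider and 3 narrower regions and 14 dyads farther downstream and 2 upstream.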

How the data were processed

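Per the file columns the deposited calls came from nucleR, and per the submitters' processing notes the build was sacCer3. The deposited score of a call is relative within a library. Aligner, filters on reads and the threshold for a call are not stated in the sources used here. Per the labels, digestion was tuned to about 80% mononucleosomes and reads were 75 bp pairs. Gene coordinates were RefSeq coding sequences of assembly R64, with 1-based positions, and no gene sequence was used here.

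Offsets were measured in windows of 20000 bp around the insertion sites and subtracted where they held, and calls within 150 bp of a site were left out. Dyads of all libraries were pooled, smoothed (Gaussian SD 20 bp) and reduced to maxima at least 80 bp apart, and calls within 60 bp were assigned to them. Pairs of -1 and +1 nucleosomes needed calls in 4 libraries. Upstream scores needed 2 calls in every library. Each measure was fitted over all genes or nucleosomes with limma 3.58.1 in R 4.3.3, two-sided, and called where the Benjamini-Hochberg adjusted p was under 0.05. The fit was tested on simulated data. Python 3.11.15, numpy 2.4.6, pandas 2.3.3, scipy 1.17.1 and matplotlib 3.10.9 did the rest.

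The labels give the 2 libraries of a number the same strain, and both libraries of each number had their coordinate steps at the same sites, so the numbers pair the libraries. The fit with the strain number as a block is given beside each gene-level call of the 36 genes that it changes and for the nucleosomes named. The deviations of same-numbered libraries from their group means correlated by -0.000527 to 0.342 over genes.

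The genes and lists were chosen with earlier results of these data known. Values in every library are given for genes called in a gene-level measure and for FUS1, STE2, FAR1, SST2, FUS3, STE12, MFA1 and MFA2, and for up to 8 nucleosomes each by smallest p for score and dyad. Other nucleosomes are named where they were called in a gene described.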

Additional observations from a re-analysis of the deposited data

Results flagged for a closer look

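In 7 of 120 groups of 4 libraries, 1 library stood apart from the other 3 by a share of the range above the 95% critical value of Dixon's test. Chance flags about 1 in 20 such groups. The gene-body score of STE2 was 0.537 in the untreated library of strain label 4, with 0.494 to 0.498 in the others, and 0.459 in the treated library of label 2, with 0.433 to 0.437 in the others. The upstream score of MFA1 was 0.687 in the treated library of label 4, with 0.711 to 0.715 in the others. The width at SST2 was 311 bp in the untreated library of label 2 (262 to 265 bp in the others), and its +1 dyad lay at -99 bp there (-150 to -147 bp in the others). In the treated library of label 2 the +1 dyad of SST2 lay at -149 bp, with -147 bp in each of the others. The width at AGA2 was 315 bp in the untreated library of label 3, with 274 to 278 bp in the others. The gene-body score of STE2 in label 4 and the width of AGA2 in label 3 enter differences that were called.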

How the results depend on the processing

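Of 316 alternative values for single results that were called, 188 kept direction and call, 125 lost the call and 3 turned. Of 215 for results that were not called, 5 became called, namely the upstream score of FUS1 (-0.181 within 400 bp and -0.0845 with calls of 0.4 or more), that of STE12 (0.109 with centred scores), the width of MFA2 (13 bp with calls of 0.4 or more) and the +1 dyad of FAR1 (18.5 bp with assignment within 30 bp). The 3 that turned were the upstream score of STE11 within 400 bp (0.00984), and the upstream score of PRM5 (0.0369) and the width of FIG2 (20.5 bp) with calls of score 0.4 or more only. The causes were not tested. The fit with the replicate block called 1 gene for upstream score in place of 4, 1 for width in place of 6, 2 for the +1 dyad in place of 7 and 0 nucleosome dyads in place of 8. Over all genes it called 36 widths in place of 1367, 17 +1 dyads in place of 1100 and 602 upstream scores in place of 927. Among the 36 genes the block changed no gene-level call beyond those given beside the results. Leaving out the libraries of 1 strain label gave 0 to 1 genes for gene-body score (3 with all), 0 to 4 for upstream score, 0 to 10 for width and 1 to 8 for the +1 dyad, and 8 to 41 nucleosome scores (51 with all) and 0 to 8 dyads. Over all genes these fits called 3 to 274 gene-body scores, 76 to 671 upstream scores, 15 to 1648 widths and 18 to 1338 +1 dyads. Over the genome 683 nucleosome scores were called without label 1, 3620 without label 2 and 2643 without label 3, in place of 5039. The genome counts of nucleosome scores without label 4 and of dyads are not given here. The fewest calls over all genes came without label 1, with 3 gene-body scores in place of 347, and next without label 4, with 12.

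The width component alone gave 0 of the 36 genes for gene-body score (204 of all genes), 0 for upstream score (182 of all genes) and 16 nucleosome scores. The height component alone gave 5 of the 31 genes for gene-body score (739 of 5094 genes). Centred scores gave 1 gene for upstream score, STE12, and over all genes 127 of 370 calls were higher, against 98 of 927 without centring, and for single nucleosomes 2865 of 5045 against 1726 of 5039. Calls of 0.4 or more gave 10 of 31 genes for width (1515 of all genes), and assignment within 30 bp gave 15 nucleosome dyads. The genome counts beside the 16 nucleosome scores and the 15 dyads are not given here. Leaving out regions beyond the insertion sites in place of subtracting the offsets changed no count by over 1.5 times. The planned count of a promoter motif was not run. The depth of single libraries is unknown, and few calls per gene limit the short coding sequences most.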

Other observations

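A list of 7 alpha-cell genes held STE3, MF(ALPHA)1, MF(ALPHA)2 and SAG1, which are specific to the opposite mating type, and STE13, KEX1 and KEX2, whose proteases mature alpha-factor and which are not alpha-specific. These 7 genes had a median upstream score of 0.900 in untreated cells, the 89.7th percentile of all genes at the median, and a median depleted region of 173.5 bp, the 7.58th percentile. Their median gene-body score, over 6 genes, was 0.586. The pheromone response genes had medians of 0.706 upstream, 251.75 bp and 0.607. These are medians of a small list chosen with results of these data known, and no test was made.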
